A study of Mus musculus with 15 samples.

Results

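Uncoupling proteins are carriers of the inner mitochondrial membrane. UCP1 lets protons flow back into the mitochondrial matrix without making ATP, which turns the energy of fuel oxidation into heat, and it is the defining protein of brown adipocytes. UCP3 is a close relative known mostly from skeletal muscle and brown fat, where its transcript follows fatty acid supply and where its own function is less settled. Transcription of Ucp1 is driven by sympathetic signals, thyroid hormone and PPAR nuclear receptors with the co-activator PGC-1alpha, and fatty acids released by lipolysis open the UCP1 protein to protons.

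The genes of interest were Ucp1, Ucp2 and Ucp3, taken as the probe sets to which the platform annotation gives that gene symbol alone. They were chosen by name and not by a rule on their values, although earlier results of these data were known. The rule found 3 of 45101 probe sets, 1 for Ucp1, 2 for Ucp3 and 0 for Ucp2. This left 2 of the 3 genes to be analysed, among 18194 genes with a named probe set. Ucp2, which is known from macrophages and other immune cells, was not analysed here. The annotation left 9211 probe sets unnamed and gave several symbols to 932, so its missing name does not show that the array lacks Ucp2. All 3 probe sets passed the filter on dim signals.

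The samples were interscapular brown adipose tissue, the heat-producing depot between the shoulder blades, from 15 adult male C57BL/6N mice of wild-type genotype fed a high-fat diet. The 5 mice of the aFGFR1/KLB group (replicates 41 to 45) had received bFKB1, an antibody that activates the receptor FGFR1 together with its co-receptor KLB, once at 10 mg/kg into the peritoneum. The 5 mice of the FGF21 group (replicates 36 to 40) had received human FGF21, the hormone that acts through the same receptor complex, in doses of 1 mg/kg that added up to 2 mg/kg a day. The 5 control mice (replicates 31 to 35) carry the label control, with no injected substance named. All tissue was taken at day 5, and each mouse gave 1 array. The antibody was given once and FGF21 repeatedly, so the comparison of the treatments sets schedules and doses apart as well as molecules.

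The brown adipocyte marker Cidea was bright in every sample, while some other markers of the same kind were dimmer and varied more. Cidea, a lipid droplet protein of brown adipocytes, read between 22197 and 24411 intensity units with aFGFR1/KLB, between 18701 and 23919 with FGF21 and between 19542 and 23538 in controls. Control 34 and FGF21 36 had the highest macrophage content of their groups, described below, so results that rest on them are also given without them. The check for far samples, given near the end, flagged neither of them for that content. Whole tissue was measured, so fewer cells of a type and less RNA per cell cannot be told apart.

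The bases just upstream of each annotated gene start are shown as a description. Whether they bear on the changes of Ucp1 and Ucp3 given below was not tested, and bases farther upstream were not examined. The sequences are those of RefSeq (GRCm38.p6), both on the plus strand, 250 bases 5′ to 3′ ending next to the gene start, at chr8:83290098-83290347 for Ucp1 and chr7:100472741-100472990 for Ucp3. Capitals mark AGGTCA, the half-site letters read by nuclear receptors, searched on both strands.
Ucp1: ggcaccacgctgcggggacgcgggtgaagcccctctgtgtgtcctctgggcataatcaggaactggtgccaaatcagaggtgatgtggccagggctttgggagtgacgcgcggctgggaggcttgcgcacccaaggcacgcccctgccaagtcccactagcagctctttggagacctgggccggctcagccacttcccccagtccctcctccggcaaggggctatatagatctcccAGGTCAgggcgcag
Ucp3: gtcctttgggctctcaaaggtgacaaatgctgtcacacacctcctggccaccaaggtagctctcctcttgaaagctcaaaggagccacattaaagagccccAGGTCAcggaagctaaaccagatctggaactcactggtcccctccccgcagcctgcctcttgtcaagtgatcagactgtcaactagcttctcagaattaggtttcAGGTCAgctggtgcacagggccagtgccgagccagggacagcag
The Ucp1 window held AGGTCA once, beginning 14 bases before the gene start. The Ucp3 window held it at 2 places, beginning 149 and 44 bases before the start. Among 32851 upstream windows of the same length in the RefSeq table, 14.0% held these letters on either strand and 1.36% held them at 2 or more places. The Ucp1 window also held TATATA, which reads the same on both strands and overlaps no AGGTCA, beginning 28 bases before the start, and the Ucp3 window did not. TATATA was present in 5.25% of the windows. The letters TGACG were also searched and began 147 bases before the Ucp1 start. They were absent from the Ucp3 window and present in 17.8% of all windows. TATAAA and CCAAT were in neither window, while 12.4% and 33.8% of all windows held them. In the same RefSeq assembly Ucp3 lies directly beside Ucp2, between C2cd3 and Ucp2, while Ucp1 lies elsewhere between Tbc1d9 and Elmod2.

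Ucp1 was higher by 14.0% with the FGFR1/KLB antibody, a small change of a transcript that was already among the brightest signals of the array. On the log2 scale the 5 antibody-treated mice (41 to 45) read 14.76, 14.81, 14.77, 14.82 and 14.72, against 14.59, 14.61, 14.52, 14.56 and 14.67 in controls 31 to 35. Every antibody-treated mouse was above every control. The means were 14.78 ± 0.04 with aFGFR1/KLB and 14.59 ± 0.06 in controls (SD, n = 5 each). The difference was 0.19 ± 0.05 (log2 ± SE), with a 95% confidence interval of 0.08 to 0.30. It passed the test across all genes (limma, Benjamini-Hochberg adjusted p = 0.0494). It was thus 1 of 2 analysed members called, where 5.18% of 13174 genes were called (2.69% higher and 2.49% lower) and 8.61% had groups that did not overlap (4.44% with the antibody group higher). The call ended in 14 of 15 fits without a single sample (adjusted p 0.0527 to 0.119) and held without FGF21 36 (adjusted p = 0.0213), while the difference stayed between 0.17 and 0.21. Adjusted over all 45101 probe sets the p was 0.113, where 1.98% were called.

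With FGF21 the difference of Ucp1 from controls did not pass the test. The 5 FGF21-treated mice (36 to 40) read 14.55, 14.71, 14.76, 14.71 and 14.74, so 4 of 5 were above the highest control at 14.67 and FGF21 36 lay among the controls. Their mean was 14.69 ± 0.08, against 14.59 ± 0.06 in controls (SD, n = 5 each). The difference was 0.10 ± 0.05 (95% confidence interval −0.01 to 0.21, limma adjusted p = 0.290), or 0.14 without FGF21 36 (adjusted p = 0.0998). Of all genes, 6.32% were called in this comparison, 2.64% higher and 3.68% lower.

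Between the treatments, Ucp1 was 0.09 ± 0.05 higher with the antibody than with FGF21 on the log2 scale (95% confidence interval −0.02 to 0.20, limma adjusted p = 0.474), where 0.372% of genes were called. In order of level the groups stood as aFGFR1/KLB, FGF21 and control, and neither neighbouring pair in that order differed by the test. On the linear scale Ucp1 read between 27014 and 28924.5 intensity units with aFGFR1/KLB, between 23964 and 27726 with FGF21 and between 23547 and 26131 in controls, on arrays whose brightest probe sets reached 32667 to 34652. Ucp1 ranked between 7 and 9 from the top of the array with aFGFR1/KLB, between 8 and 16 with FGF21 and between 10 and 17 in controls. Whether signals this near the top of the scale are compressed was not tested.

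**Figure D1:**
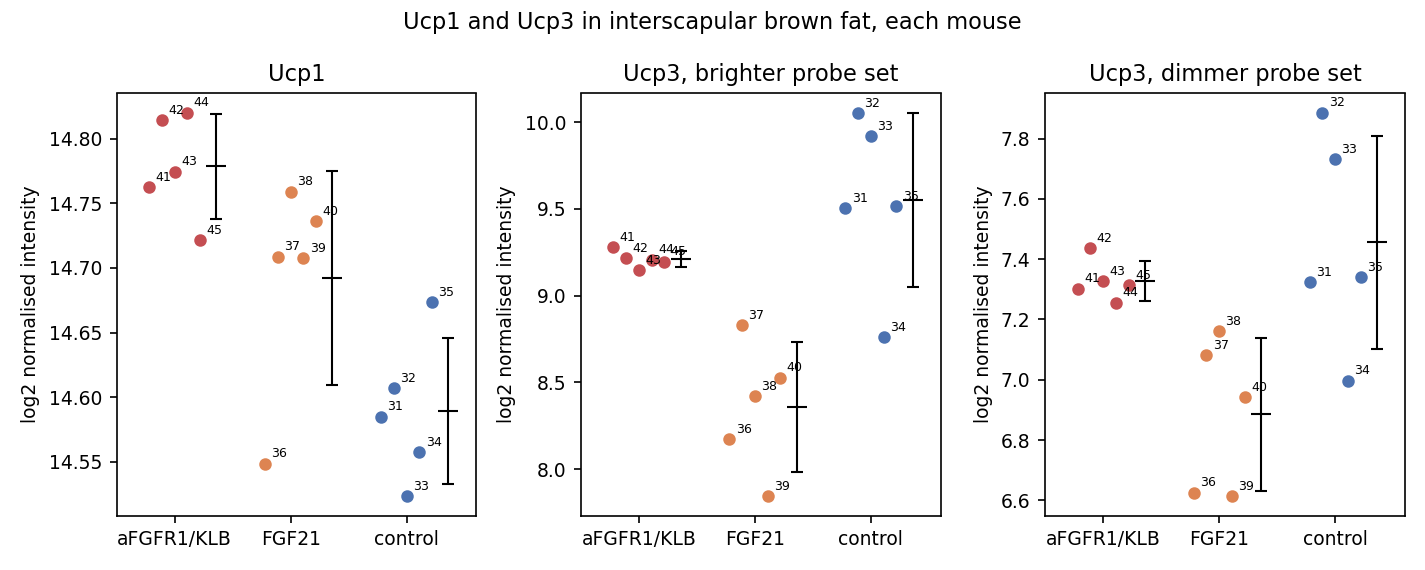
Log2 normalised intensity of the Ucp1 probe set (left) and of both Ucp3 probe sets (middle, right) in each mouse, by group, with replicate numbers beside the points and the group mean ± SD as a bar to the right (n = 5). The antibody points of Ucp1 lie above all control points, and the FGF21 points of Ucp3 lie below all antibody points on both probe sets.

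Ucp3 fell by 56.2% with FGF21. On the brighter of its probe sets FGF21-treated mice 36 to 40 read 289, 455, 343, 229.6 and 369 intensity units, against 727, 1062, 967, 434 and 732 in controls 31 to 35. 4 of the 5 FGF21-treated mice lay below every control, and FGF21 37 lay above control 34 alone. The log2 means were 8.36 ± 0.37 with FGF21 and 9.55 ± 0.50 in controls (SD, n = 5 each). Ucp3 fell by 1.19 ± 0.21 on the log2 scale (95% confidence interval −1.64 to −0.74, limma adjusted p = 0.00449), to 0.438 of the control level. The call held in each of the 15 fits without 1 sample, with differences between −1.39 and −1.06 and an adjusted p of at most 0.0149. Without control 34 and FGF21 36 together the difference was −1.34.

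The dimmer Ucp3 probe set differed from controls in the same direction but did not pass. With FGF21 it read 98.8, 135.5, 143, 97.9 and 123 intensity units, against 160.2, 236.5, 212.5, 128 and 162 in controls. The groups overlapped through control 34. Its log2 difference was −0.57 ± 0.15 (limma adjusted p = 0.0557 over all 45101 probe sets, of which 2.39% were called). It was called without control 34 and FGF21 36 (−0.62, adjusted p = 0.0108), with the macrophage covariate described below (−0.43, adjusted p = 0.0151) and with both content covariates in 1 fit (−0.43, adjusted p = 0.017). In the same fit across all probe sets the brighter one was at −1.19 with an adjusted p of 0.00539. Across the 15 mice the 2 probe sets of Ucp3, which read the same transcript on the same arrays, had a Pearson r of 0.946, or 0.899 as deviations from group means.

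With the antibody Ucp3 did not pass the test. Antibody-treated mice 41 to 45 read 622, 595, 568, 591 and 586 intensity units on the brighter probe set, against 727, 1062, 967, 434 and 732 in controls. All 5 treated values lay in the gap between control 34 and the other 4 controls. The log2 means were 9.21 ± 0.05 with aFGFR1/KLB and 9.55 ± 0.50 in controls (SD, n = 5 each), and the coefficient of variation of the intensities was 3.33% with aFGFR1/KLB and 31.2% in controls. The difference was −0.34 ± 0.21 (95% confidence interval −0.79 to 0.11, limma adjusted p = 0.419). Without control 34 it was −0.54 (adjusted p = 0.0625), and without control 32 it was −0.21 (adjusted p = 0.650). On the dimmer probe set the difference was −0.13 ± 0.15 (adjusted p = 0.800 over all probe sets).

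Set directly against each other, the treatments gave Ucp3 values that did not overlap. The antibody values were all above the highest FGF21 value, which was 455 units, on the brighter probe set. The log2 difference of aFGFR1/KLB minus FGF21 was 0.85 ± 0.21, 1.80-fold (95% confidence interval 0.40 to 1.30), but it did not pass across all genes (limma adjusted p = 0.101, unadjusted p = 0.00117). Groups did not overlap for 4.69% of all genes in this comparison, 2.39% with the antibody group higher. The call appeared without control 34, which belongs to neither group but adds to the shared estimate of spread (adjusted p = 0.0165), and in no other fit without 1 sample. On the dimmer probe set the antibody group read 152.8 to 173 units and the FGF21 group 97.9 to 143 units, again without overlap (0.44 ± 0.15, adjusted p = 0.274 over all probe sets, of which 0.175% were called). In order of level on both probe sets the groups stood as control, aFGFR1/KLB and FGF21, and neither neighbouring pair differed by the test. The comparisons of each treatment with control share the control mice.

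**Figure D2:**
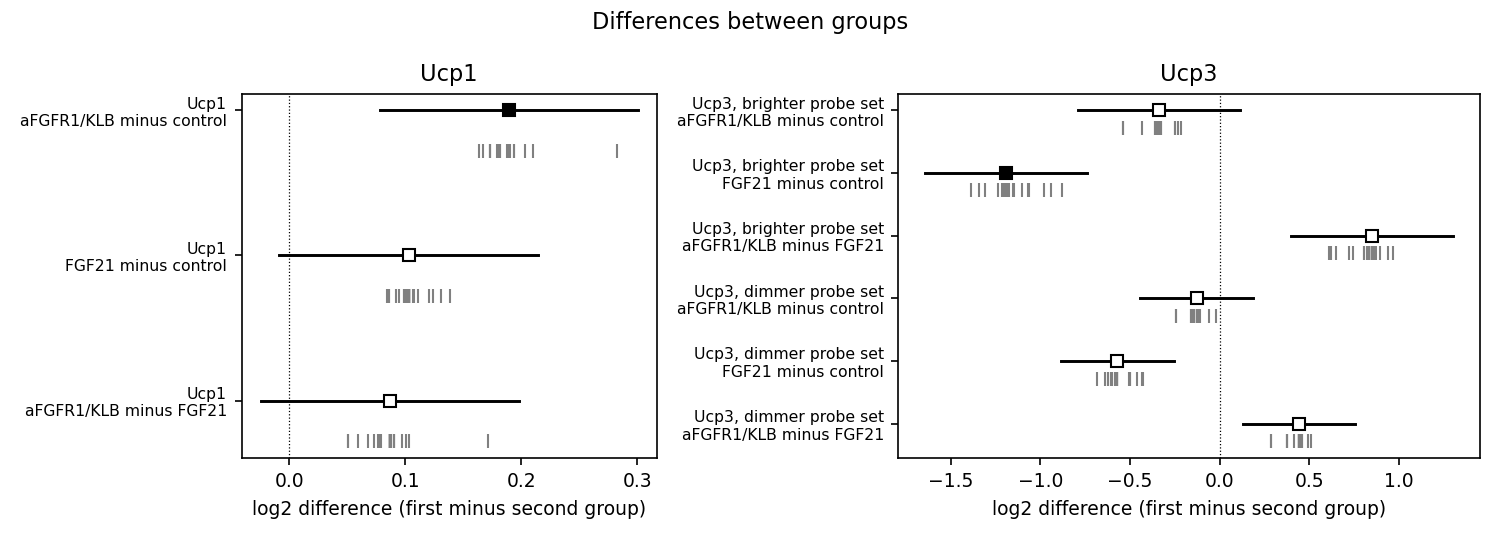
Log2 difference of the first minus the second group for Ucp1 (left) and both Ucp3 probe sets (right), as squares with 95% confidence intervals, filled where the limma adjusted p was under 0.05, with grey ticks below for the same difference under the alternative settings and without single samples. The Ucp3 difference between FGF21 and control on the brighter probe set stays below −0.8 at every tick, and the Ucp1 differences stay above 0.

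The tissue pieces differed widely in skeletal muscle transcripts. The summed intensity of 25 of 25 muscle markers ranged from 3181 to 191397 with aFGFR1/KLB, from 3318 to 172972 with FGF21 and from 16883 to 50648 in controls. Acta1, skeletal muscle actin, lay between 25.8 and 23297 units with aFGFR1/KLB, between 34.1 and 19947 with FGF21 and between 2139 and 7031 in controls. Ckm, the muscle creatine kinase, lay between 57.1 and 11521 units with aFGFR1/KLB, between 53.5 and 12217 with FGF21 and between 705 and 2911 in controls. Mylpf, a fast-muscle myosin light chain, lay between 40.3 and 10493 units with aFGFR1/KLB, between 30.4 and 6695 with FGF21 and between 1021 and 3894 in controls. The mean of the markers was highest in aFGFR1/KLB 45 and FGF21 36 and lowest in FGF21 38 and aFGFR1/KLB 44. The median difference of the 25 markers from control was −0.71 for the antibody and −0.81 for FGF21, where all genes had medians of −0.02 and −0.02. In the same order, 22 and 23 of the 25 were lower than in controls. Without control 34 and FGF21 36 the medians were −0.81 and −1.93. None of the 25 markers was called in any comparison by limma, and 0 had an unadjusted p under 0.05.

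Among the antibody-treated mice Ucp3 spanned a narrower range than the muscle markers, at 1.10-fold on its brighter probe set against 60.2-fold for the muscle sum. Ucp3 varied 1.98-fold with FGF21 and 2.45-fold in controls, whose muscle sums were the closest together of the 3 groups. Across the 15 mice Ucp3 and the mean log2 value of the muscle markers had a Pearson r of 0.18 (permutation p = 0.528, adjusted p = 0.528 over 4 relations) and a Spearman rho of 0.17 (permutation p = 0.539). Without the 2 samples farthest from the median muscle content, aFGFR1/KLB 45 and FGF21 38, r was 0.06. As deviations from group means r was 0.10 (permutation p = 0.68, adjusted p = 0.68) and rho −0.06 (permutation p = 0.83). Without aFGFR1/KLB 45 and FGF21 36, the farthest by deviation, that r was 0.26. With the muscle mean of each sample as a covariate, the difference of FGF21 from control was −1.18 ± 0.22 (limma adjusted p = 0.00645).

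Macrophage transcripts, in contrast, ran opposite to Ucp3. The summed intensity of 26 tested markers of 28 ranged from 16745 to 30938 with aFGFR1/KLB, from 13218 to 97890 with FGF21 and from 10045 to 82152 in controls, the highest values being those of FGF21 36 and control 34. The median difference of the 26 markers was −0.10 for the antibody and 0.52 for FGF21 against control, where all genes had medians of −0.02 and −0.02, and 0 of 26 were called in either comparison by limma (1 and 2 at an unadjusted p under 0.05). The medians were 0.28 and 0.57 without control 34 and FGF21 36, where Cx3cr1 was called lower in both comparisons (adjusted p = 0.0216 in each) and Lgals3 higher with FGF21 (adjusted p = 0.037). Of all genes, 12.4% and 16.2% were called in the same fit. For aFGFR1/KLB minus FGF21 the median of the 26 markers was −0.61, where all genes had a median of 0.01. Of the 26, 25 were lower with the antibody, and 0 were called by limma. Without control 34 and FGF21 36 this median was −0.25. Cd68, a lysosomal macrophage protein, lay between 430.1 and 831 units with aFGFR1/KLB, between 271 and 3860 with FGF21 and between 195 and 2759 in controls. Adgre1, the macrophage surface protein F4/80, lay between 229 and 419 units with aFGFR1/KLB, between 162 and 1512 with FGF21 and between 147 and 903 in controls. The receptor Csf1r lay between 1598 and 2459 units with aFGFR1/KLB, between 1585 and 7587 with FGF21 and between 1668 and 5466 in controls.

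Across the 15 mice the Pearson r of Ucp3 with the macrophage mean was −0.72 (permutation p = 0.00288, adjusted p = 0.0115 over 4 relations) and Spearman's rho −0.78 (permutation p = 0.00087, adjusted p = 0.00348). As deviations from group means, with permutation within groups, r was −0.87 (p = 0.00192, adjusted p = 0.00384) and rho −0.94 (p = 6e-05, adjusted p = 0.00024). Without control 34 and FGF21 36, the samples farthest from the median, r was −0.75 for the values and −0.86 for the deviations. Within the antibody group, Ucp3 on its brighter probe set stood in the reverse order of macrophage content, aFGFR1/KLB 41 being highest in Ucp3 and lowest in the markers, but on the dimmer probe set it did not, aFGFR1/KLB 42 being highest. With the macrophage mean as a covariate the Ucp3 difference between FGF21 and control was −0.98 ± 0.12 (limma adjusted p = 0.000183), and with macrophage and muscle means together −0.94 ± 0.11 (adjusted p = 0.00014). In the fit with the macrophage covariate Ucp3 was also called lower with the antibody than in controls, at −0.36 ± 0.11 (adjusted p = 0.0474), and higher with the antibody than with FGF21, at 0.62 ± 0.12 (adjusted p = 0.0245). Neither call held on the dimmer probe set, which was at −0.14 (adjusted p = 0.439) and 0.28 (adjusted p = 0.259) in the same order.

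Ucp1 showed another relation. Its Pearson r with the macrophage mean was −0.23 (permutation p = 0.409, adjusted p = 0.528) and its rho −0.11 (p = 0.695), and without control 34 and FGF21 36 r was 0.43. As deviations from group means this r was −0.41 (permutation p = 0.211, adjusted p = 0.281) and rho −0.28 (p = 0.367). Without control 34 and FGF21 36 the r of the deviations was 0.14. With the muscle mean its r was −0.56 (permutation p = 0.0326, adjusted p = 0.0652) and its rho −0.52 (p = 0.0502). As deviations from group means, r with the muscle mean was −0.75 (permutation p = 0.00016, adjusted p = 0.00064), rho was −0.77 (p = 0.00055, adjusted p = 0.0011), and r without the 2 farthest samples was −0.55. With the muscle covariate Ucp1 was 0.17 ± 0.05 higher with the antibody than in controls (limma adjusted p = 0.0478), and with the macrophage covariate 0.19 ± 0.05 higher (adjusted p = 0.0231).

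**Figure D3:**
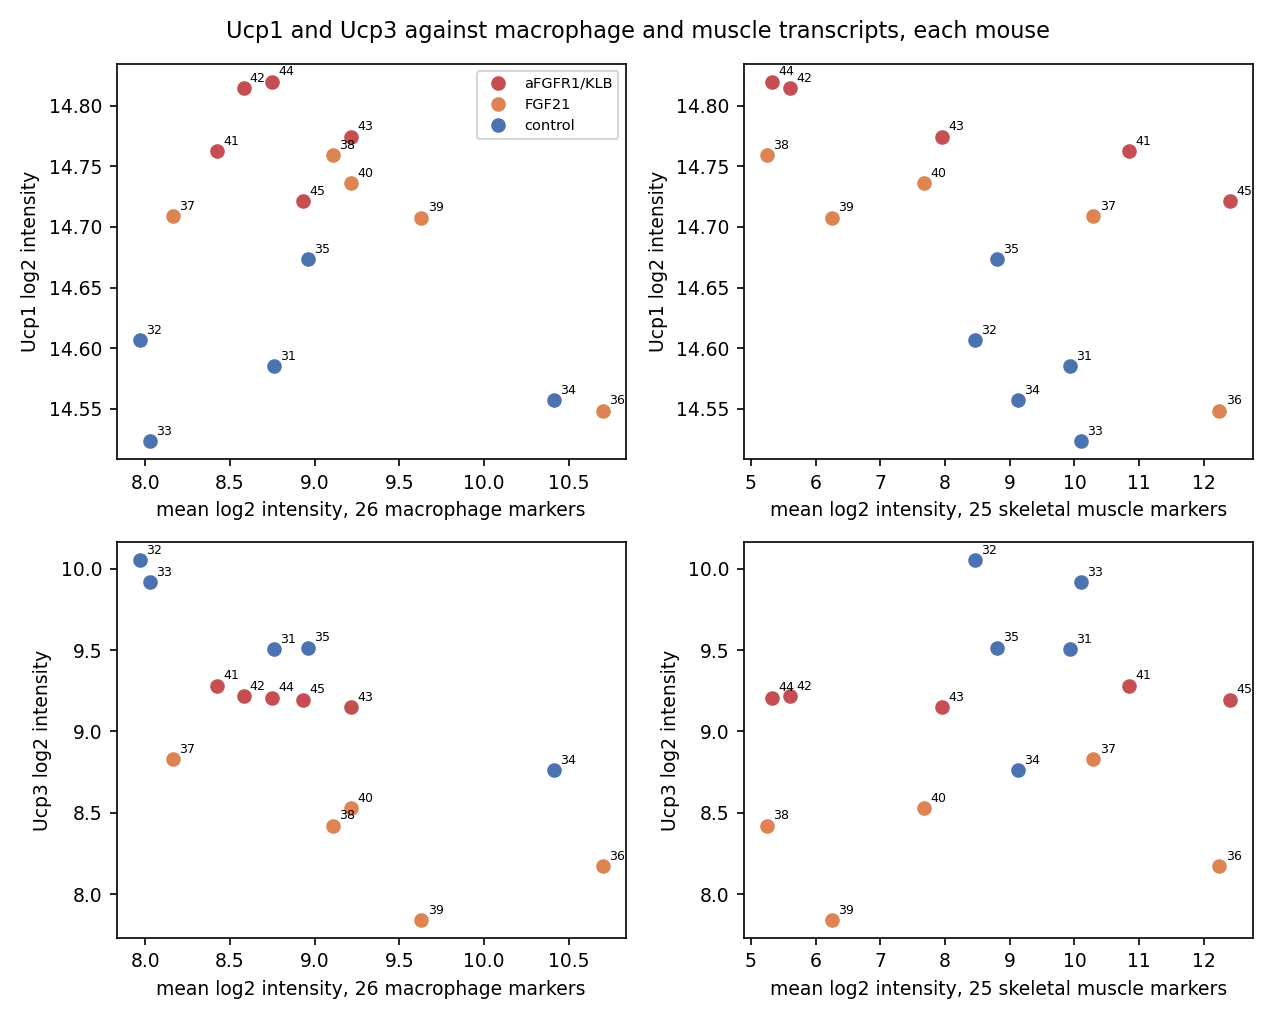
Log2 intensity of Ucp1 (top) and Ucp3 on its brighter probe set (bottom) against the mean log2 intensity of 26 macrophage markers (left) and 25 skeletal muscle markers (right), 1 point per mouse with its replicate number, colours for groups. Ucp3 slopes down with macrophage markers within every group, and the 5 antibody points of Ucp3 stay level across the whole range of muscle markers.

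The genes whose values over the 15 mice were most like those of Ucp1, by Pearson r among 13173 other genes, were Hspd1, the mitochondrial chaperonin HSP60 (0.975), Dbt, which acts in the breakdown of branched-chain amino acids (0.943), Pafah2 (0.936), Tmem135 (0.932) and Cd320 (0.931). As deviations from group means the nearest were Hspd1 (0.945), L3hypdh (0.943), Idh3a, a subunit of isocitrate dehydrogenase (0.930), Mcur1 (0.924) and Hccs (0.915). For Ucp3 the nearest by value were Dhcr7, the last enzyme of cholesterol synthesis (0.944), Thtpa (0.930), Osgep (0.930), Ankrd24 (0.926) and Sh3bp5 (0.924). As deviations they were Dglucy (0.969), Fbp2, the muscle form of fructose bisphosphatase (0.956), Ank2 (0.940), Rap1gap (0.935) and Thtpa (0.923). These correlations are descriptions over 15 samples that share groups and tissue composition.

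The counts of called genes that follow are to be read against those of all 13174 genes. In the fits of all 15 samples, 2.69% of genes were called higher and 2.49% lower with the antibody than in controls, and 2.64% higher and 3.68% lower with FGF21. Leaving out control 34 and FGF21 36 changed these shares to 5.41% and 6.97% for the antibody (12.4% in all) and to 6.77% and 9.46% for FGF21 (16.2% in all). Between the treatments the share called was then 1.83%, 0.797% higher and 1.03% lower with the antibody.

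Other relatives of the uncoupling proteins in the mitochondrial carrier family did not pass with all 15 samples. None of the 7 tested genes of 8 listed was called by limma for the antibody or for FGF21 against control (0 and 1 at an unadjusted p under 0.05), and their median differences were −0.01 and −0.01. Slc25a30, a kidney mitochondrial carrier close to the uncoupling proteins, was at 0.25 ± 0.15 for the antibody and 0.35 ± 0.15 for FGF21 against control (log2 ± SE, adjusted p = 0.384 and 0.193). Without control 34 and FGF21 36 Slc25a30 was called higher in both comparisons (adjusted p = 0.00228 and 0.00181), where 12.4% and 16.2% of all genes were called. Slc25a27, also called UCP4, was at 0.18 ± 0.12 and 0.13 ± 0.12 in the same order, and Slc25a14, also called UCP5, at −0.12 ± 0.06 and −0.01 ± 0.06.

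Genes known to activate Ucp1 transcription moved in both directions. With the antibody 3 of 23 tested activators rose and 1 fell, where 5.18% of all genes were called, and with FGF21 2 rose and 3 fell, where 6.32% were called. The median differences were −0.02 and −0.02, as they were for all genes. The antibody counts were 5 and 3, and the FGF21 counts 3 and 4, without control 34 and FGF21 36, where 12.4% and 16.2% of all genes were called. Dio2, the deiodinase that makes active thyroid hormone inside brown adipocytes, rose by 1.16 ± 0.24 with the antibody (limma adjusted p = 0.0142) and by 1.89 ± 0.24 with FGF21 (adjusted p = 0.000594). Both calls held without any single sample, and 1 of its 2 other probe sets was called for the antibody and 2 for FGF21. Ppargc1a, which encodes PGC-1alpha, was higher with the antibody by 0.60 ± 0.17 (adjusted p = 0.0486, a call kept in 4 of 15 fits without 1 sample) and stood 0.57 ± 0.17 above control with FGF21 (adjusted p = 0.0559), where it was called without control 34 and FGF21 36 (adjusted p = 0.00527) and in 6 of 13 alternatives. Med1, a Mediator subunit, was higher by 0.30 with the antibody (kept in all 15 fits) and by 0.25 with FGF21 (kept in 7 of 15). None of its 3 other probe sets was called, with differences of 0.001 to 0.20 and 0.02 to 0.15 in the same order.

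Other regulators of brown fat genes fell. Prdm16, a determinant of brown fat identity, fell by 0.51 ± 0.14 with the antibody (limma adjusted p = 0.0475, kept in 4 of 15 fits) and by 0.87 ± 0.14 with FGF21 (adjusted p = 0.00233, kept in all 15). Of its 3 other probe sets, 1 was called for the antibody and 2 for FGF21. Ppara, a fatty acid-sensing nuclear receptor, fell by 0.68 ± 0.15 with FGF21 (adjusted p = 0.0127), as it did on 2 of 2 further probe sets. Thra, the thyroid hormone receptor alpha, fell by 0.59 ± 0.09 with FGF21 (adjusted p = 0.0014), again on 2 of 2 further probe sets. Between the treatments none of the 23 activators was called by limma (9 at an unadjusted p under 0.05). Leaving out control 34 and FGF21 36 gave 3 calls, where 1.83% of all genes were called. The nuclear receptors Rxrg (adjusted p = 0.0133) and Thra (adjusted p = 0.0202) were higher and Dio2 (adjusted p = 0.0342) lower with the antibody. Between the treatments with all 15 samples, Dio2 was at −0.73 ± 0.24, Prdm16 at 0.36 ± 0.14 and Ppargc1a at 0.04 ± 0.17.

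Among 13 tested genes known to restrain Ucp1 transcription, 0 rose and 1 fell with the antibody and 0 rose and 2 fell with FGF21, where 5.18% and 6.32% of all genes were called. Those counts were 0 and 3 for the antibody and 1 and 3 for FGF21 without control 34 and FGF21 36, where 12.4% and 16.2% of all genes were called. Between the treatments 1 was higher and 1 lower with the antibody, where 0.129% of all genes were higher and 0.243% lower. Zfp423, which holds adipocytes in a white state, fell by 0.60 ± 0.09 with FGF21 (limma adjusted p = 0.00144) and was 0.46 ± 0.09 higher with the antibody than with FGF21 (adjusted p = 0.0438, kept in 3 of 15 fits without 1 sample). Sin3b, a co-repressor subunit, fell by 0.41 ± 0.06 with the antibody (adjusted p = 0.00117) and by 0.23 ± 0.06 with FGF21 (adjusted p = 0.0246, kept in 10 of 15 fits and on none of its 4 other probe sets). Tle3, a co-repressor that opposes Prdm16, was lower with the antibody than with FGF21 (log2 difference −0.56 ± 0.08, adjusted p = 0.0099), a call kept in all 15 fits and on 1 of 3 other probe sets.

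Fatty acids released from lipid droplets both fuel and activate UCP1. Of 16 tested genes of their release and supply, 4 rose and 0 fell with the antibody, and 3 rose and 1 fell with FGF21, where 5.18% and 6.32% of all genes were called. The median differences were 0.19 and 0.10, against −0.02 and −0.02 for all genes. Without control 34 and FGF21 36, 7 rose and 1 fell with the antibody, and 5 rose and 2 fell with FGF21, where 12.4% and 16.2% of all genes were called. Adcy3, an adenylyl cyclase that makes cyclic AMP, rose by 1.44 ± 0.23 with the antibody (limma adjusted p = 0.00347) and by 1.10 ± 0.23 with FGF21 (adjusted p = 0.0123), on 3 of 3 further probe sets in both comparisons. Abhd5, the activator of the triglyceride lipase ATGL, rose by 0.78 ± 0.12 and 0.63 ± 0.12 in the same order (adjusted p = 0.00233 and 0.00603). Slc27a2, a fatty acid transporter, rose by 1.02 ± 0.26 with the antibody (adjusted p = 0.0367, kept in 7 of 15 fits), and Cd36, a fatty acid receptor, by 0.23 ± 0.05 (adjusted p = 0.0248, kept in 9 of 15). None of the 2 other probe sets of Cd36 was called. Plin5, a lipid droplet protein that links droplets to mitochondria, fell by 0.42 ± 0.10 with FGF21 (adjusted p = 0.0218, kept in 11 of 15), and Lpl, lipoprotein lipase, was higher by 0.19 ± 0.05 (adjusted p = 0.0489, kept in 1 of 15). The other probe set was called for Lpl but not for Plin5.

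**Figure D4:**
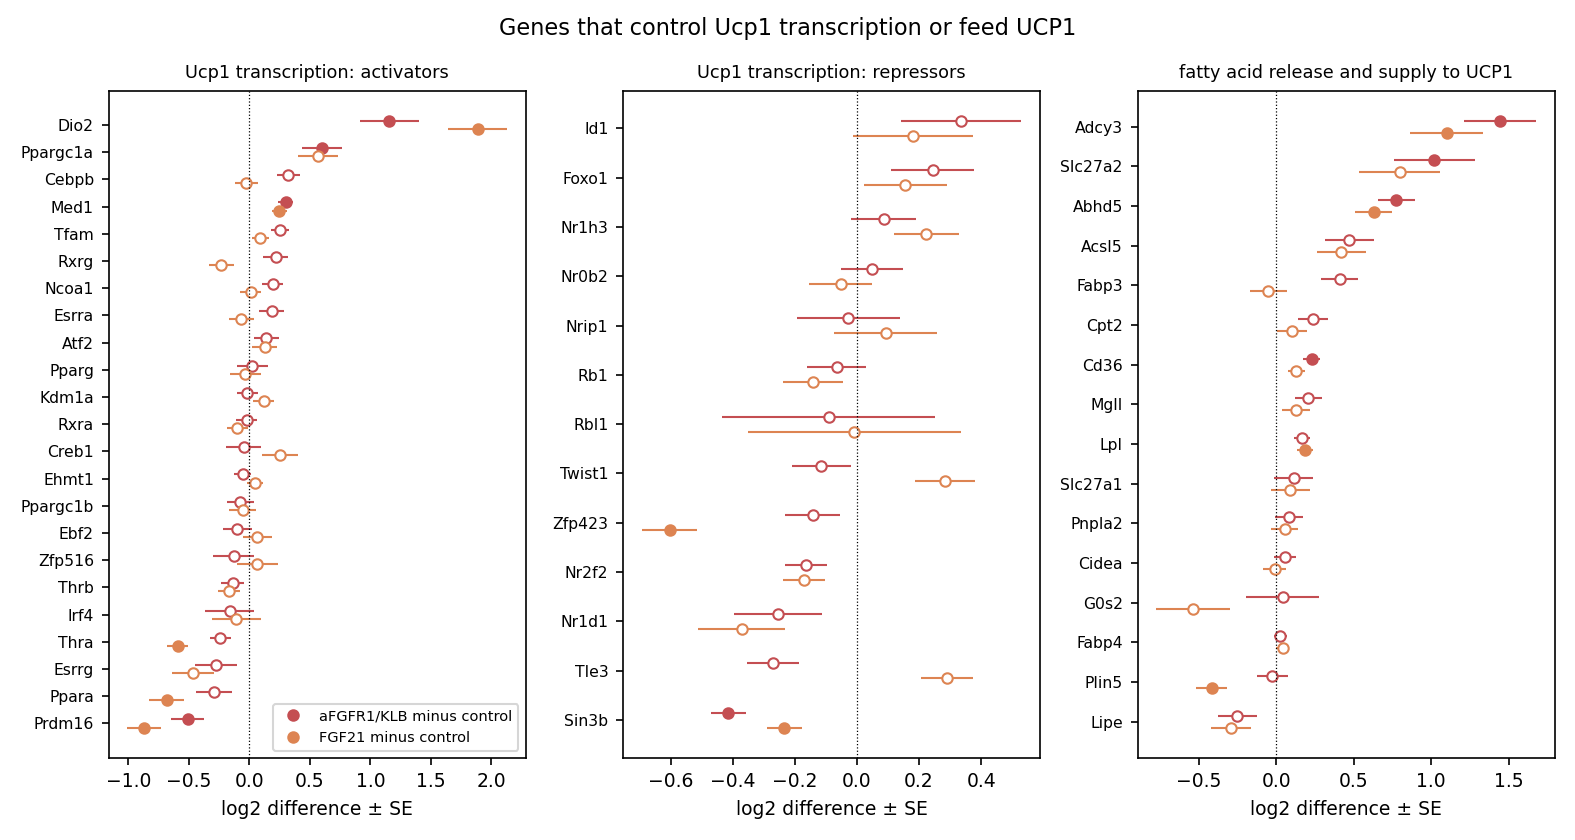
Log2 difference ± SE of antibody and FGF21 against control for 23 activators and 13 repressors of Ucp1 transcription and 16 genes of fatty acid release and supply, filled points being those with a limma adjusted p under 0.05. Dio2 and Adcy3 lie far to the right for both treatments, and Prdm16, Ppara and Thra lie to the left for FGF21.

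Brown adipocyte markers other than Ucp1 also moved both ways, and the list shares Dio2, Prdm16, Ppargc1a and Ebf2 with the activators. With the antibody 5 of 21 tested markers rose and 2 fell, and with FGF21 4 rose and 1 fell, where 5.18% and 6.32% of all genes were called, and the medians were 0.17 and 0.06. Those counts were 6 and 2 for the antibody and 5 and 3 for FGF21 without control 34 and FGF21 36. The shares of all genes called were then 12.4% and 16.2%. Elovl3, a fatty acid elongase of active brown fat, rose by 2.10 ± 0.23 with the antibody (limma adjusted p = 0.000331) and by 1.60 ± 0.23 with FGF21 (adjusted p = 0.00111). Eva1a, another brown fat marker, rose by 0.80 ± 0.08 and 0.46 ± 0.08 in the same order. Bmp8b, a secreted factor of brown adipocytes, rose by 1.33 ± 0.21 with FGF21 (adjusted p = 0.00189). It was also higher with the antibody, by 0.80 ± 0.21 (adjusted p = 0.036, kept in 8 of 15 fits), although its other probe set was not called there. P2rx5, a purinergic receptor used as a brown fat surface marker, fell by 0.70 ± 0.15 with the antibody (limma adjusted p = 0.0143). With FGF21 P2rx5 was at −0.51 ± 0.15 (adjusted p = 0.0533) and was called without control 34 and FGF21 36 (adjusted p = 0.00769). Cox8b and Cox7a1, brown-fat-enriched subunits of cytochrome oxidase, had means of 14.66 and 13.81 with aFGFR1/KLB, 14.57 and 13.69 with FGF21 and 14.65 and 13.68 in controls on the log2 scale.

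Of the general mitochondrial list, 1 of 20 members was called with the antibody, near the 5.18% of all genes. That member, Hspd1, rose by 0.25 ± 0.07 (limma adjusted p = 0.0445, kept in 3 of 15 fits), and with FGF21 0 of 20 were called by limma (1 at an unadjusted p under 0.05). In the FGF21 comparison without control 34 and FGF21 36, Hspd1 was called higher (adjusted p = 0.0469) and Ndufb8, a subunit of respiratory complex I, lower (adjusted p = 0.0474). There 16.2% of all genes were called. With all 15 samples the medians were 0.05 for the antibody and −0.04 for FGF21.

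Ucp3 is known to respond to fatty acids and PPAR receptors, and other genes of that kind were called in both directions. Of 21 tested genes, 4 rose and 1 fell with the antibody, and 3 rose and 1, Plin5, fell with FGF21, where 5.18% and 6.32% of all genes were called, with medians of 0.12 and 0.03. Without control 34 and FGF21 36, 6 rose and 3 fell with the antibody, and 4 rose and 4 fell with FGF21, where 12.4% and 16.2% of all genes were called. Acot1, a cytosolic acyl-CoA thioesterase, rose by 1.22 ± 0.15 with the antibody (limma adjusted p = 0.000768) and by 0.92 ± 0.15 with FGF21 (adjusted p = 0.00271). Ehhadh, which oxidises fatty acids in peroxisomes, rose by 1.50 ± 0.27 with the antibody (adjusted p = 0.00737), and Acot2, the mitochondrial thioesterase, by 0.69 ± 0.15 (adjusted p = 0.0168, lost without aFGFR1/KLB 42 at 0.051). Plin2, a lipid droplet coat protein, rose by 0.37 ± 0.06 with FGF21 (adjusted p = 0.00189), and Cpt1a, the gate of fatty acids into mitochondria, by 0.69 ± 0.18 (adjusted p = 0.0386, kept in 2 of 15). Plin2 was also higher with the antibody, by 0.23 ± 0.06 (adjusted p = 0.0352, kept in 7 of 15). Angptl4, an inhibitor of lipoprotein lipase, fell by 0.72 ± 0.16 with the antibody (adjusted p = 0.0186, kept in 12 of 15).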

How the data were processed

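RNA of 15 brown fat samples was measured on Affymetrix expression arrays. The authors deposited normalised intensities on a linear scale (5.58 to 34652), made with RMA per the submitters' processing notes. Version, chip definition and later steps are not given in the sources used here. Arrays give no read depth, and their number limits the precision. Groups came from the sample titles, which give separate replicate numbers, and the series design calls them biological replicates.

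Logarithms to base 2 were taken and nothing else was normalised. GEO's platform annotation gave 1 symbol to 34958 of 45101 probe sets and several to 932, and 9211 are unnamed here. Symbols were checked through Entrez IDs against RefSeq (GRCm38.p6), where 34754 matched. Each gene was represented by its brightest probe set, and 13174 genes were tested, those whose mean exceeded a log2 value of 5.06, the 40th percentile over probe sets. A model with 3 groups was fitted to all 15 samples with limma 3.58.1 in R 4.3.3 (lmFit, eBayes, two-sided, 12 residual degrees of freedom), and p-values were adjusted by Benjamini and Hochberg within each comparison, with a threshold of 0.05. A second fit took every probe set without a filter. Adjusted p-values in all texts are limma's unless named otherwise. The fit was also run on simulated data, in which each gene was drawn independently. Those data lacked the differences in tissue content that genes share here, and no result rests on them. Relations across samples used 100000 permutations, two-sided.

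Named genes were every probe set of the members, up to 4 called members per list and comparison with the smallest p, Ppargc1a, Dio2 and Prdm16 in every comparison, defining markers of the cell types and the 5 nearest patterns. Agt, Cidea, Cox7a1, Cox8b, Cx3cr1, Lep, Lgals3, Ndufb8, Rxrg, Slc25a14, Slc25a27 and Slc25a30 were named after their values were seen. Tests and relations planned for Ucp2 were not run, which left 6 tests and 4 relations. The members and lists were chosen with earlier results of these data known, and the list counts are descriptions without a list test. Alternatives covered normalisation, scaling, pseudocount, filter, probe set rule, samples, spread, test and covariates.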

Additional observations from a re-analysis of the deposited data

Results flagged for a closer look

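Among 42 groups of 5 values checked, 1 held a sample far from the others, where chance flags about 1 in 20. Ucp1 in FGF21 36 read 14.55 on the log2 scale, against 14.71 to 14.76 in the other 4 FGF21-treated mice, a gap of 0.756 of the group's range where 0.71 is the critical value. The same sample had the highest macrophage sum of the series (97890) and the highest muscle sum of its group (172972). Their part in its low Ucp1 value was not tested. Without it, Ucp1 was 0.14 higher with FGF21 than in controls (limma adjusted p = 0.0998).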

How the results depend on the processing

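Of 180 alternative values of the 6 differences of Ucp1 and Ucp3, 150 kept direction and side of the threshold, 19 lost a call, 11 gained one and 0 changed sign. The exact permutation test was adjusted over these 6 differences and not over all genes, so 2 choices changed together in it. Ucp3 with FGF21 against control was called under every alternative run (−1.39 to −0.88). Ucp1 with the antibody against control lost its call with ribosomal protein centring (0.28), quantile normalisation (0.16), every probe set above the filter as its own row, no filter, or only both compared groups in the fit (0.19 in each), and ranged over 0.17 to 0.21 without single samples. With that test and adjustment Ucp1 gained a call between antibody and FGF21 (0.087, exact permutation p = 0.0317). Ucp3 with the antibody against control gained a call with array weights (−0.43), a macrophage covariate (−0.36) or macrophage and muscle covariates (−0.33). Ucp3 between antibody and FGF21 gained one with array weights (0.74), the exact permutation test with its adjustment (0.85, p = 0.00794, the smallest it can give, against an unadjusted limma p of 0.00117), only both compared groups (0.85), a macrophage covariate (0.62), both covariates (0.61) or without control 34 and FGF21 36 together (0.81), and ranged over 0.72 to 0.97 without single samples. The causes were not tested.

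Ppargc1a between antibody and FGF21, never called, changed sign with a macrophage covariate (−0.017), without control 34 and FGF21 36 (−0.11), and without single samples (−0.11 to 0.17). Ribosomal protein centring moved the median of all genes by 0.09, 0.01 and 0.09 in the antibody, FGF21 and between-treatment comparisons, and the share of calls that were higher from 51.9%, 41.8% and 34.7% to 77.2%, 66.5% and 22.2%. Genes called numbered 682, 833 and 49, and over the alternatives 145 to 2307, 179 to 2855 and 9 to 832, lowest with that centring and highest with array weights. No paired analysis was possible because the groups share no replicate numbers. Alternatives planned for Ucp2 were not run.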

Other observations

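White adipocyte markers, which a piece of brown fat can hold at its rim, varied between the treated mice. The summed intensity of 9 tested markers ranged from 6307 to 14656 with aFGFR1/KLB, from 9276 to 21981 with FGF21 and from 12408 to 14116 in controls. Their median difference from control was −0.37 for the antibody and −0.03 for FGF21, and 0 of 9 were called by limma in either comparison (2 and 3 at an unadjusted p under 0.05). In the fit without control 34 and FGF21 36, Lep, the gene of the hormone leptin, was called lower with the antibody (adjusted p = 0.0196) and with FGF21 (adjusted p = 0.0136), and Agt, angiotensinogen, higher (adjusted p = 0.0422 and 0.0457). That fit called 12.4% and 16.2% of all genes in the same order. Lymphocyte markers were dim in all groups, with sums over 9 tested markers of 545.1 to 669 with aFGFR1/KLB, 574 to 725 with FGF21 and 583 to 908 in controls. None of those 9 was called by limma against control (2 and 1 at an unadjusted p under 0.05).

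The 2 Ucp3 probe sets also differed in the size of the same contrast, with log2 differences between FGF21 and control of −1.19 on the brighter and −0.57 on the dimmer one. Their values in the group of controls spanned 2.45-fold and 1.85-fold.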
